A study of Mus musculus with 6 samples.

Results

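The mRNAs of the respiratory chain that are encoded by mitochondrial DNA were followed in the RNA recovered with LARP1 from mouse dorsal root ganglia (DRG), where the cell bodies of the body's sensory neurons lie. The set was defined by 10 Ensembl gene identifiers, those of mt-Nd1, mt-Nd2, mt-Nd3, mt-Nd4, mt-Nd5, mt-Co1, mt-Co2, mt-Co3, mt-Atp6 and mt-Cytb. Of these, 9 were among the 16976 identifiers of the count table, and mt-Nd3 (ENSMUSG00000064360) was not measured. Injured samples were LARP1 precipitates of DRG from wild-type mice whose sciatic nerve had been injured. Uninjured samples were LARP1 precipitates of wild-type mouse DRG labelled as uninjured. Each group had 3 libraries labelled as replicates. The labels do not give strain, age, the kind of nerve injury or the time after it. Lysate was precipitated with an antibody to LARP1, and the recovered RNA was copied to cDNA, amplified, barcoded and read by nanopore sequencing. No total RNA or control precipitate was analysed here, so each value is a level within the precipitate and not an enrichment over the ganglion. The ganglion holds glia and immune cells beside neurons, and fewer cells of a type and less RNA per cell cannot be told apart in these bulk samples. Cell type markers were not examined, because the table used here pairs no Ensembl identifier with a symbol.

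Mitochondrial DNA codes for a small number of proteins, which are core subunits of respiratory complexes I, III and IV and of the ATP synthase (complex V), while all other subunits come from nuclear genes. The mitochondrial chromosome is transcribed as long RNAs that span many genes, and most mRNAs are released by cutting out the transfer RNAs that lie between them. These mRNAs are translated inside the organelle by its own ribosomes. LARP1, by contrast, is a cytosolic RNA-binding protein known for binding nuclear-encoded mRNAs with a terminal oligopyrimidine tract, such as those of ribosomal proteins. In sensory neurons, whose axons are very long, mitochondria are carried along the axon and supply much of its ATP.

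The libraries held 211337 to 211879 counts in the injured group and 116186 to 116608 counts in the uninjured group. Taken over all genes whose summed count in the group reached 15, libraries of the same group varied by 1.12 times counting noise (ratio of variances) in the injured and 1.16 times in the uninjured group. The libraries of a group were therefore counted as 1 sample and their counts were summed. Levels are given as the count of a gene per 1000000 counts of the library (CPM), and a ratio is always injured over uninjured CPM of the summed groups. The 95% exact intervals cover at most counting error. They treat each count as independent, but amplified reads without molecular identifiers are not independent molecules, so the intervals can be too narrow even for that. With 1 sample per group no difference could be checked against biological replicates, and a group effect and a preparation effect cannot be told apart. For the mitochondrial mRNAs the same measure of spread ranged from 0.262 to 3.59 in the injured and from 0.0166 to 1.41 in the uninjured libraries. The highest value belonged to mt-Co3 in the injured libraries, so for that gene the interval is narrower than the spread between libraries.

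The mitochondrial mRNAs took a larger share of the injured than of the uninjured precipitate. The 9 genes together held 6034 of 634615 counts in the injured group, or 0.951% (95% Clopper-Pearson interval 0.927% to 0.975%), and 2279 of 349027 counts in the uninjured group, or 0.653% (0.627% to 0.680%). By library, the share was 0.898%, 0.995% and 0.959% in the injured and 0.643%, 0.648% and 0.668% in the uninjured libraries. Every injured library lay above every uninjured one. The mean share was 0.951% ± 0.0490 in injured and 0.653% ± 0.0132 in uninjured libraries (SD, n = 3 libraries of 1 sample each), and the ratio of the summed shares was 1.46 (1.39 to 1.53). The injured libraries differed among themselves in this share by 5.35 times counting noise, against 0.312 times for the uninjured libraries. The intervals of the injured share and of the ratio are therefore narrower than the spread between injured libraries. Without mt-Co3, which held most of these counts, the other 8 genes had a share of 0.469% in the injured and 0.260% in the uninjured group, a ratio of 1.81 (1.68 to 1.95).

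**Figure D1:**
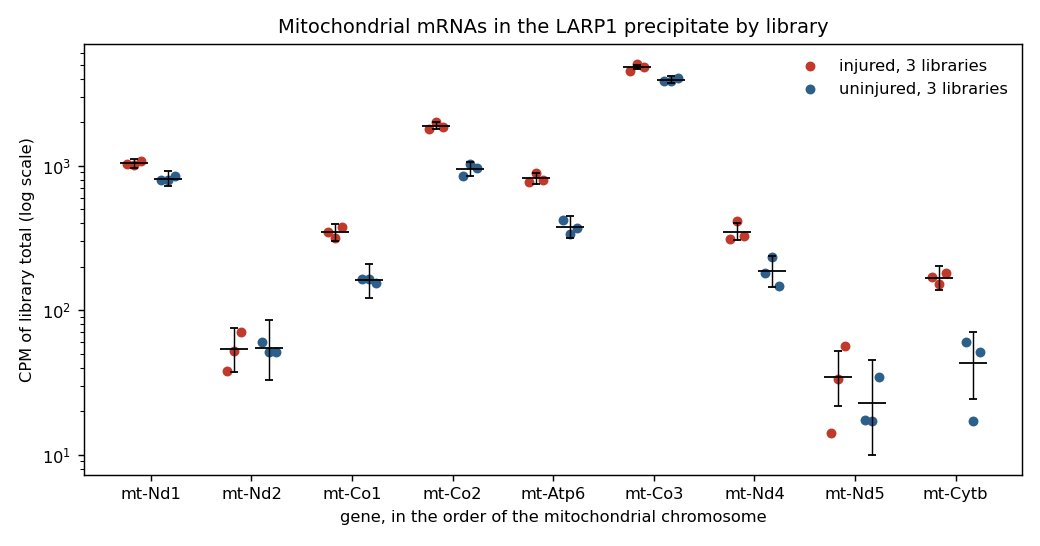
CPM of each mitochondrial mRNA (log axis) in the 3 injured (red) and 3 uninjured (blue) libraries, with the summed group level and its 95% exact Poisson interval in black. For 7 genes every injured point lies above every uninjured point, while the points of mt-Nd2 and mt-Nd5 overlap between the groups.

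By single gene, 8 of the 9 measured ratios were above 1, as were 54.0% of those of all genes tested, and in 7 genes the interval excluded 1 and the libraries of the groups did not overlap. Those 7 genes were also the only ones to pass the filter on low counts, and edgeR's quasi-likelihood test called all 7 higher in the injured reads at a Benjamini-Hochberg threshold of 0.05. That test compares the reads of 2 samples and not the conditions, and it called 24.9% of all 3158 genes tested higher and 22.1% lower. Among all genes tested, 32.4% had every injured library above every uninjured one. An exact binomial test of the summed counts, which like the intervals covers counting error only, called 899 of the 3158 genes higher and 674 lower after adjustment. The 7 mitochondrial genes were among those called higher. A ratio of at least 2 was reached by 3 of the 9 genes (mt-Cytb, mt-Atp6 and mt-Co1) and by 18.2% of all genes tested. The median ratio was 1.88 over the 9 genes and 1.06 over all genes tested. mt-Cytb passed the filter only through the injured libraries, so its place among the genes tested was tied to its being high there. With a coefficient of variation of 0.2 between samples assumed in place of the measured spread, mt-Cytb alone was called, against 9.66% of all genes tested in the same direction. With an assumed 0.4 none of the 7 genes was called by edgeR's exact test and 1 had an unadjusted p under 0.05, against 1.33% of all genes tested called higher.

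Complex IV, cytochrome c oxidase, passes electrons to oxygen, and its 3 catalytic core subunits are all mitochondrially encoded. Their mRNAs together held 0.665%, 0.741% and 0.708% of the counts of the injured libraries and 0.490%, 0.504% and 0.517% of those of the uninjured libraries, a ratio of 1.40 (1.32 to 1.48) that mt-Co3 weighs on most. mt-Co1 (ENSMUSG00000064351) encodes the subunit that holds the site of oxygen reduction. Its level was 349, 317 and 374 CPM in the injured libraries and 163, 163 and 155 CPM in the uninjured libraries. The groups were well apart, with a ratio of 2.16 (1.60 to 2.95) from 220 injured and 56 uninjured counts. mt-Co2 (ENSMUSG00000064354) encodes the subunit that takes up electrons from cytochrome c. It stood at 1789, 2011 and 1859 CPM in the injured libraries and at 852, 1029 and 955 CPM in the uninjured libraries, a ratio of 1.99 (1.76 to 2.26) with no overlap. mt-Co3 (ENSMUSG00000064358) encodes the third core subunit, which carries none of the metal centres, and was the most counted of the 9 mRNAs. It had 4517, 5087 and 4844 CPM in the injured libraries and 3880, 3851 and 4062 CPM in the uninjured libraries. The groups did not overlap, but the ratio was only 1.23 (1.15 to 1.31). It was 1.15 (1.08 to 1.22) when the 10 most abundant other genes were left out of the library totals. Within complex IV the ratio of mt-Co1 was 1.08 times that of mt-Co2, a difference within counting error (0.783 to 1.52). Each exceeded that of mt-Co3, by 1.76 times for mt-Co1 (1.30 to 2.43) and by 1.63 times for mt-Co2 (1.42 to 1.87).

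Complex I, NADH dehydrogenase, feeds electrons from NADH into the chain, and the genes measured for it encode subunits of its membrane arm. The 4 mRNAs together held 0.138%, 0.15% and 0.154% of the counts of the injured libraries and 0.105%, 0.109% and 0.108% of those of the uninjured libraries, a ratio of 1.37 (1.22 to 1.55). mt-Nd1 (ENSMUSG00000064341) encodes the subunit at the joint between the membrane arm and the peripheral arm. It had 1019, 1003 and 1083 CPM in the injured libraries and 792, 789 and 852 CPM in the uninjured libraries. All injured values were higher, with a ratio of 1.28 (1.11 to 1.47), and the gene lost its call with DESeq2 and when uninjured library 1 or uninjured library 2 was left out. mt-Nd4 (ENSMUSG00000064363), mt-Nd2 (ENSMUSG00000064345) and mt-Nd5 (ENSMUSG00000064367) encode subunits with proton channels that are related to bacterial antiporters. mt-Nd4 had 311, 412 and 326 CPM in the injured libraries and 181, 232 and 146 CPM in the uninjured libraries. Its groups were separate, and the ratio of 1.88 (1.42 to 2.52) was 1.47 times that of mt-Nd1 (1.07 to 2.04).

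The other complex I genes were scarce, and the depth did not resolve a difference of moderate size. mt-Nd2 had 8, 11 and 15 counts in the injured libraries and 7, 6 and 6 in the uninjured libraries. At 53.6 CPM injured and 54.4 CPM uninjured its ratio was 0.984, with an interval from 0.546 to 1.83. That ratio was 1.13 without injured library 1 and 1.04 without uninjured library 1, so its direction was not resolved. mt-Nd5 had 3, 7 and 12 counts in the injured libraries and 2, 2 and 4 in the uninjured libraries. Its ratio of 1.51 (0.649 to 3.93) ranged from 1.03 without injured library 3 to 2.02 without uninjured library 3. Neither gene passed the filter on low counts, and both sets of libraries overlapped. The interval of mt-Nd2 reaches 1.83, so a ratio like that of mt-Nd1 is not excluded for it, and neither is no difference. mt-Nd5 also overlaps mt-Nd6 on the opposite strand, and no source used here says that strand was used in counting, so reads of that stretch cannot be told apart.

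mt-Cytb (ENSMUSG00000064370) encodes cytochrome b, the only mitochondrially encoded subunit of complex III, which passes electrons from ubiquinol to cytochrome c. It had the highest ratio of the 9 genes. It was counted 36, 32 and 38 times in the injured libraries and 7, 2 and 6 times in the uninjured libraries, or 170, 151 and 180 CPM against 60.2, 17.2 and 51.6 CPM. All injured libraries lay far above the uninjured ones, but the ratio of 3.89 (2.25 to 7.19) rests on 15 uninjured counts. Leaving out uninjured library 2, which held the fewest, gave 2.99 (1.67 to 5.79), and leaving out uninjured library 1 gave 4.86 (2.38 to 11.6).

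mt-Atp6 (ENSMUSG00000064357) encodes the subunit of the ATP synthase that forms the proton channel beside the turning ring. It had 774, 885 and 799 CPM in the injured libraries and 422, 334 and 370 CPM in the uninjured libraries. The lowest injured value was well above the highest uninjured one, and the ratio was 2.18 (1.80 to 2.66) from 520 injured and 131 uninjured counts. The mt-Atp6 message also carries the overlapping gene mt-Atp8, which was not among the genes followed here.

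**Figure D2:**
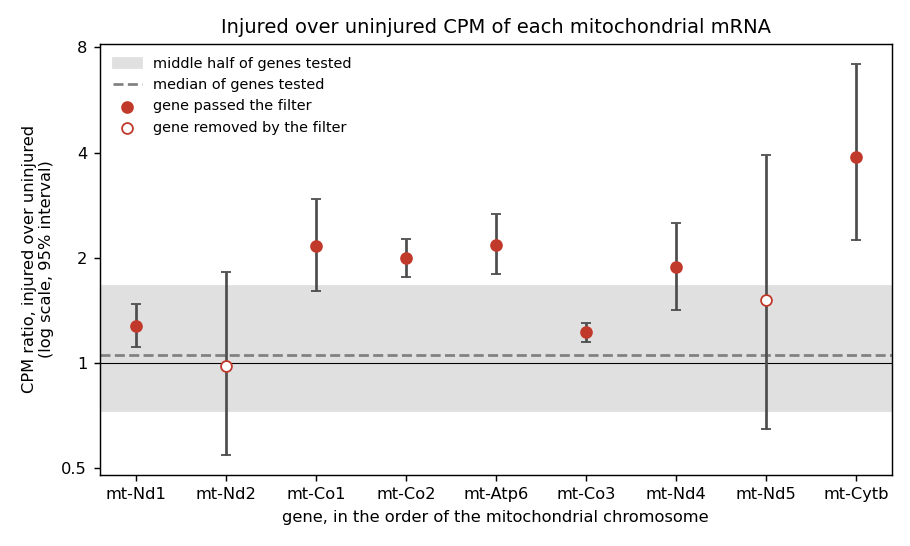
CPM ratio of injured over uninjured (log axis) of the 9 mitochondrial mRNAs with 95% exact intervals, in the gene order of the mitochondrial chromosome. Filled points passed the filter on low counts, the grey band spans the quartiles of all genes tested (0.728 to 1.67) and the dashed line is their median, 1.06; mt-Co1, mt-Co2, mt-Atp6, mt-Nd4 and mt-Cytb lie above the band, and mt-Nd1 and mt-Co3 lie within it.

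Because the ratios were unequal, the make-up of the mitochondrial mRNAs differed between the groups, a comparison that does not depend on library totals. mt-Co3 made up 50.6% of the counts of the 9 genes in the injured group (49.4% to 51.9%) and 60.2% in the uninjured group (58.2% to 62.2%). Its share was 50.3% to 51.1% across the injured libraries and 59.4% to 60.8% across the uninjured libraries. Set against the other 8 genes together, mt-Co3 had an odds ratio of 0.678 (95% conditional exact interval 0.614 to 0.749), injured over uninjured. mt-Co2 made up 19.8% of the injured and 14.5% of the uninjured counts, with an odds ratio of 1.46 (1.28 to 1.67). mt-Atp6 made up 8.62% of the injured and 5.75% of the uninjured counts (odds ratio 1.55, 1.27 to 1.90). For mt-Co1 the shares were 3.65% injured and 2.46% uninjured (odds ratio 1.5, 1.11 to 2.06), and for mt-Cytb 1.76% injured and 0.658% uninjured (2.70, 1.56 to 5.0). The intervals of mt-Nd1 (0.862, 0.741 to 1.00), mt-Nd4 (1.30, 0.978 to 1.75), mt-Nd2 and mt-Nd5 included 1. These 9 intervals were not adjusted for their number. Nor were they independent: mt-Co3 held most of the counts, so the odds ratio of any other gene was largely a comparison with mt-Co3. The 8 genes without mt-Co3 together had a CPM ratio of 1.81 (1.68 to 1.95). The CPM ratio intervals of mt-Co2, mt-Atp6, mt-Co1, mt-Nd4, mt-Nd2 and mt-Nd5 overlapped that interval. That of mt-Nd1 (1.11 to 1.47) lay below it and that of mt-Cytb (2.25 to 7.19) above it.

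**Figure D3:**
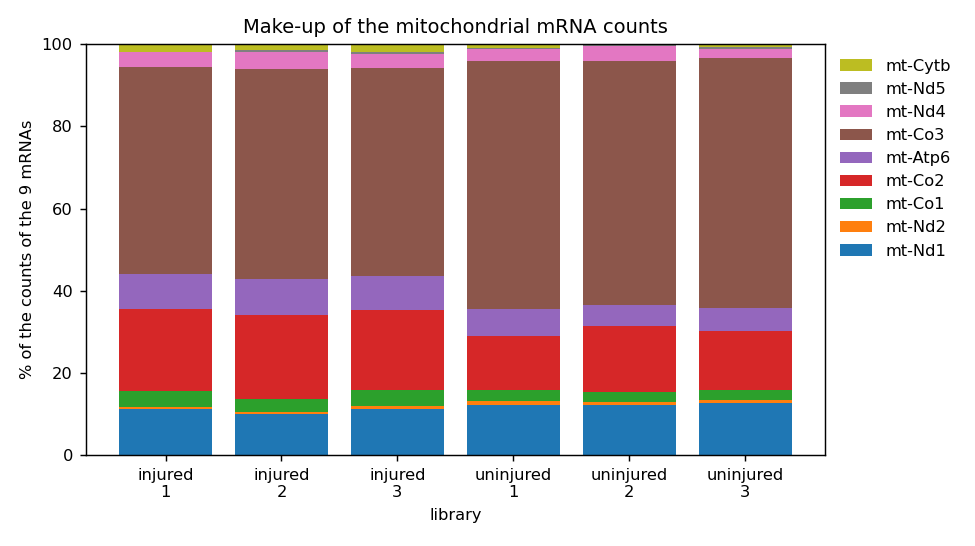
Share of each gene in the counts of the 9 mitochondrial mRNAs, in percent, as stacked bars for the 3 injured and then the 3 uninjured libraries. The mt-Co3 segment spans 50.3% to 51.1% in injured and 59.4% to 60.8% in uninjured libraries, and the mt-Co2 and mt-Atp6 segments are taller in the injured libraries.

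Some of the measured genes that follow each other on the mitochondrial chromosome, mostly with other genes between them, had unequal ratios. In the gene order of the RefSeq table, the 9 measured genes lie as mt-Nd1, mt-Nd2, mt-Co1, mt-Co2, mt-Atp6, mt-Co3, mt-Nd4, mt-Nd5 and mt-Cytb. The ratios of mt-Co1, mt-Co2 and mt-Atp6 were close to each other (mt-Atp6 over mt-Co2, 1.09, 0.868 to 1.38). The ratio of mt-Co3, the next gene, was 0.561 times that of mt-Atp6 (0.455 to 0.689), although no gene lies between the pair. That of mt-Nd4 was 1.53 times that of mt-Co3 (1.15 to 2.07), with mt-Nd3 and mt-Nd4l among the genes between them. The step between mt-Nd2 and mt-Co1 was 2.19 (1.09 to 4.30), but it rests on 34 injured and 19 uninjured counts of mt-Nd2. The other 5 of the 8 steps had intervals that included 1. These 8 intervals were not adjusted for their number. The nuclear genome holds near-identical copies of stretches of mitochondrial DNA. Estimated counts can share reads among such copies and between abutting genes, so the values of single genes carry that uncertainty.

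Levels can be set against each other per kilobase of gene length, with lengths from the RefSeq gene table of assembly GRCm38.p6. A nanopore read can cover a whole mRNA, so this scale favours short genes. Per kilobase, mt-Co3 was the highest of the 9 in both groups, with 6142 CPM per kilobase injured and 5014 uninjured, followed by mt-Co2 with 2758 injured and 1382 uninjured. In the injured group the order then ran through mt-Atp6 (1203), mt-Nd1 (1082), mt-Nd4 (254), mt-Co1 (224), mt-Cytb (146), mt-Nd2 (51.6) and mt-Nd5 (19.0), where mt-Atp6 and mt-Nd1, and mt-Nd4 and mt-Co1, did not differ beyond counting error. In the uninjured group mt-Nd1 (847) came before mt-Atp6 (551) and mt-Nd2 (52.4) before mt-Cytb (37.6). mt-Nd1 and mt-Atp6 differed by 1.54 times (1.25 to 1.91) and mt-Nd2 and mt-Cytb not beyond counting error, nor did mt-Nd4 (135) and mt-Co1 (104), while mt-Nd5 was lowest with 12.6. The highest level was 323 times the lowest in the injured and 399 times the lowest in the uninjured group.

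**Figure D4:**
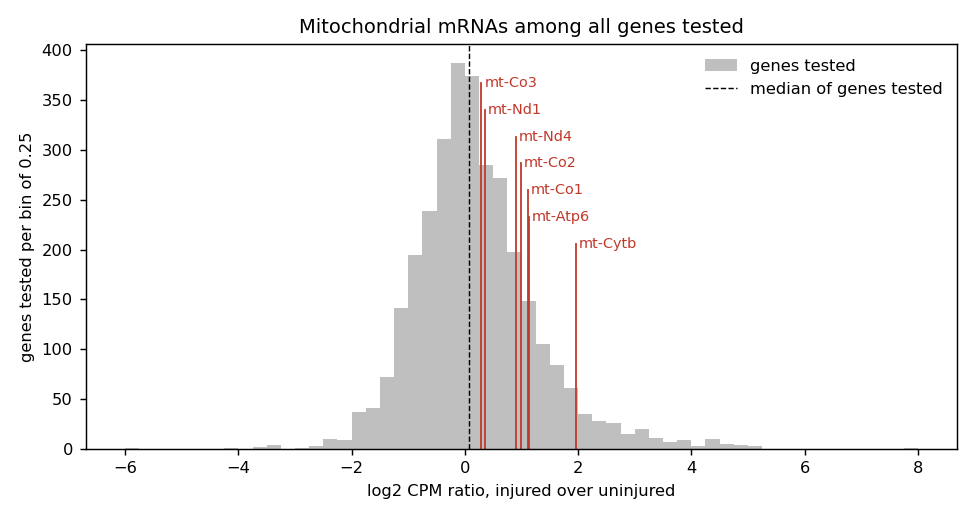
Histogram of the log2 CPM ratio, injured over uninjured, of the 3158 genes tested, with the 7 mitochondrial mRNAs that passed the filter as red lines of arbitrary height, 22 genes without uninjured counts placed by a floor of 3 counts, and the median of all genes, 0.08, dashed. The red lines run from 0.29 (mt-Co3) and 0.35 (mt-Nd1) through 0.91 to 1.13 (mt-Nd4, mt-Co2, mt-Co1 and mt-Atp6) to 1.96 (mt-Cytb), all above the median of the genes tested.

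The ratios of the 7 genes that passed the filter lay above the median of all genes tested, but those of mt-Co3 and mt-Nd1 lay within the quartiles. Genes could enter the test by being high in injured libraries only. The ratio of mt-Co3 was above that of 60.04% of genes tested and that of mt-Nd1 above 61.8%. The ratios of mt-Nd4, mt-Co2, mt-Co1 and mt-Atp6 were above those of 79.6%, 81.8%, 84.2% and 84.7% of genes tested, and that of mt-Cytb above 94.0%. On the TMM scale of edgeR's test, all ratios of CPM lay 0.07 lower in log2, and the log2 fold changes there ran from 0.22 for mt-Co3 to 1.87 for mt-Cytb.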

How the data were processed

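Sequencing counts of LARP1 precipitates were analysed for 6 libraries, 3 injured and 3 uninjured. The authors deposited estimated counts for each Ensembl identifier without normalization. The tools named are Salmon and minimap2, and the build is GRCm39 (mm39), per the submitters' processing notes, which give neither versions nor the annotation. All values were whole, so rounding changed none. Members and lists were chosen with earlier results of these data known. The 10 identifiers took their symbols from the definition of the set; none of the table's identifiers was matched in the RefSeq table (GRCm38.p6), which gave gene order and lengths by RefSeq symbol. The lists of nuclear mitochondrial genes, ribosomal proteins and cell type markers were therefore not analysed here, nor was Larp1, and no sequences are shown. All 9 measured members are named.

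CPM used library totals. Intervals are exact Poisson for levels, Clopper-Pearson for shares and ratios, and conditional exact for odds ratios, at 95% (scipy 1.17.1). At 3 counts, the summed groups resolve 4.73 CPM (injured) and 8.60 CPM (uninjured). Genes were tested across all 6 libraries by quasi-likelihood in edgeR 4.0.16 under R 4.3.3, with TMM factors, filterByExpr and Benjamini-Hochberg adjustment over 3158 genes. The code was also run on simulated data. Those data had the spread measured between libraries of a group, so they cannot show how the test performs with differences between biological samples. Alternatives were limma-voom from limma 3.58.1, DESeq2 1.42.0, other normalizations, filters and denominators, the replicate number as a block, summed counts with assumed spreads, and leaving out each library.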

Additional observations from a re-analysis of the deposited data

How the results depend on the processing

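With mt-Co3 left out, chosen after seeing the data, the ratio of the shares of all counts was 1.81 in place of 1.46. When each library was left out in turn, values were 1.42 to 1.497 for that ratio, 1.71 to 2.07 for the median ratio over the 9 genes and 0.667 to 0.688 for the odds ratio of mt-Co3. For mt-Co3 the CPM ratio became 1.15 without the 10 most abundant other genes in the totals. The other 137 values of single genes stayed within their counting interval. Whether the odds ratio intervals of mt-Nd1 and mt-Nd4 included 1 was not stable. That of mt-Nd1 lay below 1 without injured library 1 (0.717 to 0.992) or 3 (0.717 to 0.994). That of mt-Nd4 lay above 1 without uninjured library 2 (1.05 to 2.18) and barely so without injured library 3. Leaving out any other library kept 1 inside the interval of each. The direction of scarce mt-Nd2 and mt-Nd5, whose intervals include 1, was not stable: the CPM ratio of mt-Nd2, 0.984, was 1.13 without injured library 1 and 1.04 without uninjured library 1, and the odds ratio of mt-Nd5 against the other genes, 1.04, was 0.710 without injured library 3 and 0.931 and 0.925 without uninjured library 1 and 2. Of the 7 genes called, 1 (mt-Nd1) lost its call with DESeq2, and also without uninjured library 1 or 2. Over all genes, edgeR called 786 higher and 699 lower; with an assumed coefficient of variation of 0.2 these were 305 and 176, and 1 mitochondrial gene was called. With 0.4 they were 42 and 5, and 0 mitochondrial genes were called by edgeR's exact test, with 1 at an unadjusted p under 0.05. Those settings differ from the quasi-likelihood test of 6 libraries in the summing, the kind of test and the assumed spread. With the replicate number as a block, 750 genes were called higher and 677 lower, including all 7 mitochondrial genes as higher. The samples share only a number: correlations between same-numbered libraries, in their deviations from the group mean of 2976 genes, were 0.0389, -0.00625 and -0.0506, and the best match was the own number for 1 of 3 uninjured libraries. Depth limits mt-Nd2, mt-Nd5 and mt-Cytb, with 19, 8 and 15 uninjured counts.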

Other observations

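The count table holds 3 further identifiers numbered between those of the mitochondrial mRNAs, to which the sources used here give no name; they were singled out after their values were seen. ENSMUSG00000064352 had 330, 348 and 351 counts in the injured and 46, 59 and 49 counts in the uninjured libraries, a ratio of 3.67 (3.10 to 4.38) with no overlap. ENSMUSG00000064343 went the other way, with 333, 336 and 329 counts in the injured and 280, 255 and 272 counts in the uninjured libraries, a ratio of 0.680 (0.619 to 0.747). ENSMUSG00000064368 had 12, 9 and 6 counts in the injured and 6, 12 and 5 counts in the uninjured libraries, and its ratio of 0.646 (0.356 to 1.18) was not resolved at this depth.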
